A study of Mus musculus with 12 samples.

Results

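ORR1 elements are rodent LTR retrotransposons of the ERVL-MaLR family. The members were all rows of the deposited repeat tables whose family was ERVL-MaLR and whose name began with ORR1. This gave 29 of 18538 repeat names, comprising 14 terminal repeats and 15 internal parts (names ending in -int) of the subfamilies A to G. No row outside ERVL-MaLR carried ORR1 in its name (0 rows), and all 29 members passed the filter on low counts. The tables pair each name with a class, a family and a count, so no sequence of an element is shown.

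MaLR elements are nonautonomous: a pair of long terminal repeats flanks an internal part that does not code for the proteins of a retrovirus. The terminal repeat carries the promoter, and recombination between the pair leaves many solitary terminal repeats in the genome with no internal part. In mouse oocytes and early embryos, terminal repeats of MaLR and MERVL elements serve as alternative promoters and first exons of genes, and their transcripts are abundant when the embryonic genome is first transcribed. The subfamily letters A to G run broadly from younger to older insertions.

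The RNA was total RNA of C57BL/6 embryos at the 2-cell stage, 1.5 days after fertilization, in 12 libraries. In the group WT (m+/p-, 6 libraries) wild-type oocytes had been fertilized with Kdm4a knockout sperm, and in the group KO (m-/p-, 6 libraries) the oocytes were Kdm4a knockout as well, so both groups lacked a working paternal allele. Kdm4a encodes KDM4A, an enzyme that strips methyl marks from histone H3, and the contrast is that of the maternal allele and whatever product the oocyte had stored. Sampling of the 2 genotypes was simultaneous, and each embryo went into a tube of its own before lysis, although the labels do not say how many embryos a library holds. The number of females behind them is not stated, so p-values measure the spread between these libraries, which may in part be technical.

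Library totals ran from 7952526 (KO replicate 5) to 18902360 counts (WT replicate 4). WT replicate 2 lay farthest from the median on the first principal component (21.7% of variance) and KO replicate 5 on the second (12.2%). Some library is always the farthest, and whether these were outliers was not tested. Results are also given without both. MERVL-int, a transcript that marks the 2-cell stage, made up at least 2.48% of the counts in every library, with 5.86% ± 0.835 in WT and 3.52% ± 0.703 in KO, so the defining repeat of the labelled stage was present throughout. No gene was in the tables, and the genotype labels could not be checked against Kdm4a. Ribosomal RNA repeats made up 5.74% ± 0.488 of WT counts and 5.55% ± 0.775 of KO counts (mean ± SD, n = 6).

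ORR1 rows took 11.5% ± 0.624 of all counts in WT and 10.7% ± 0.719 in KO (mean ± SD, 6 libraries a group). The WT libraries spanned 10.5% to 12.2% with a median of 11.7%, the KO libraries 9.85% to 11.6% with a median of 10.6%, and the groups overlapped. Most of these reads came from internal parts. Internal parts held 74.4% ± 0.640 of the ORR1 counts in WT (73.4% to 75.2%) and 71.5% ± 1.48 in KO (69.7% to 73.6%). Within the ERVL-MaLR family the ORR1 share was 38.1% ± 0.541 in WT and 37.6% ± 0.721 in KO, a smaller difference than the spread between libraries of KO. These are sums over the members and were not tested. In counts of bulk RNA, fewer transcripts per embryo and a smaller share among other transcripts cannot be told apart.

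The subfamily A gave most of the reads. Its 10 rows held 70.8% ± 0.849 of the ORR1 counts in WT and 68.1% ± 1.44 in KO (mean ± SD, n = 6). The 5 internal parts of A alone held 59.1% ± 0.856 in WT, from 57.7% to 60.3%, and 56.2% ± 1.50 in KO, from 54.4% to 57.7%, with no overlap between the groups. Rows of D followed with 10.5% ± 0.448 in WT and 11.3% ± 0.536 in KO. Rows of B, C, E, F and G held 1.55% (F) to 6.74% (B) of the ORR1 counts in WT and 1.99% to 7.40% in KO. Such shares sum to a fixed total, and counts are not corrected for the length or copy number of a subfamily, so they do not rank transcription per copy.

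The genotypes were compared row by row. Log2 fold changes were negative for 14 of 15 internal parts and for the 5 terminal repeats of A, and lay between 0.01 and 0.08 for the terminal repeats of E, F and G. Of the 29 rows, 2 fell in KO at an adjusted p under 0.05 (ORR1A0-int and ORR1A3-int) and 27 did not pass (edgeR quasi-likelihood test, Benjamini-Hochberg over 3312 tested repeats). Over all tested repeats 1.27% were called lower, and 4.08% of the 637 tested rows of the LTR class. No member was called higher, against 0.151% of all repeats. A further 12 members had an edgeR adjusted p between 0.05 and 0.1, all with a negative log2 fold change. Over all repeats 2.87% were lower at an adjusted p under 0.1, a share that includes those under 0.05. At an unadjusted edgeR p under 0.05, 22 of 29 members were lower, against 7.91% of all repeats and 22.0% of LTR rows. No member was higher at that unadjusted threshold, against 5.50% of all repeats.

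**Figure D1:**
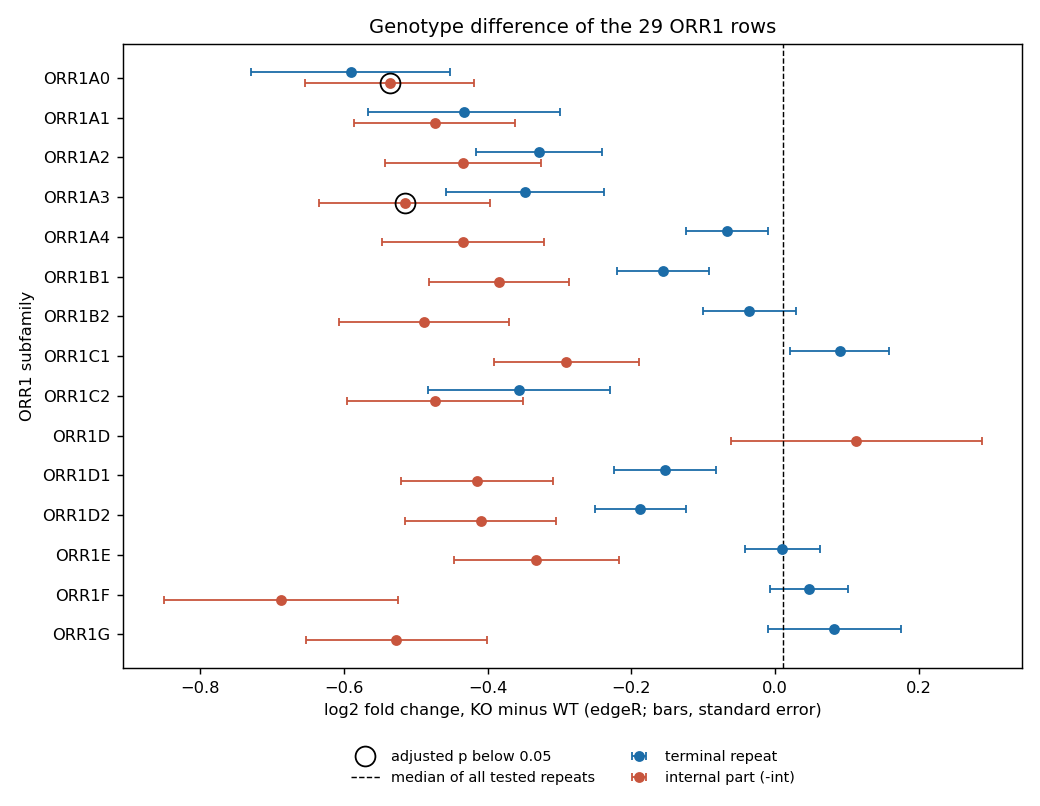
Log2 fold change (KO minus WT, edgeR) of each ORR1 row on the horizontal axis, by subfamily on the vertical axis, with terminal repeats in blue, internal parts in red, bars for the standard error (n = 6 per group), black rings for an adjusted p below 0.05 and a dashed line for the median of all tested repeats (0.01). Internal parts other than ORR1D-int lie between -0.69 and -0.29, while terminal repeats spread from -0.59 (ORR1A0) to 0.09 (ORR1C1).

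The median log2 fold change of the 29 rows was -0.36, against 0.01 for all tested repeats. A negative value was seen in 24 of 29 rows, against 48.8% of all repeats and 59.0% of LTR rows. The 15 internal parts had a median of -0.43, 14 of them negative, and the 14 terminal repeats a median of -0.15, 10 of them negative. Elsewhere in the family, the 20 MT rows had a median of -0.30 and the 54 tested rows that are neither ORR1 nor MT a median of 0.17.

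The count of members called lower moved with the setting. DESeq2 called 16 of the 29 lower (12 internal parts and 4 terminal repeats, background 3.83%), limma-voom with quality weights 7 (background 1.87%), and edgeR without simple repeats and low-complexity rows 15 (12 internal parts and 3 terminal repeats, background 7.11%). It was 14 with at least 50 counts required in at least 6 libraries (background 4.67%), 9 with library size as a covariate (2.02%), 7 with TMM factors from rows outside the LTR class (1.93%), 7 with the replicate number as a block (1.42%), 2 with upper quartile factors (1.27%), and 0 with RLE factors (1.12%) or no filter (0.164%). Leaving out single libraries gave 16 lower calls without KO replicate 2 (background 2.43%), 4 without WT replicate 4 (1.03%), 1 without WT replicate 5 (1.40%), 2 without KO replicate 4 (34 of 3388 tested repeats), and 0 without WT replicate 1, 2, 3 or 6 or KO replicate 1, 3, 5 or 6 (0.52% to 1.2% of all repeats called lower). Without WT replicate 2 and KO replicate 5 together the count was 0 (background 0.555%), with 24 of 29 log2 fold changes negative and a median of -0.29. KO replicate 2 was the highest KO library in 18 of the 29 rows and WT replicate 2 the highest WT library in 21 of 29.

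When libraries were scaled by total counts, the median of all repeats shifted to 0.32 and that of the ORR1 rows to -0.05, a distance between them of -0.37, against -0.37 with TMM scaling. The median of the terminal repeats became 0.16 and that of the internal parts -0.13. Negative log2 fold changes numbered 18 of 29 instead of 24, in 13 internal parts and 5 terminal repeats. Under total counts edgeR called ORR1F-int lower (log2 fold change -0.38, adjusted p = 0.0420) and 5 terminal repeats higher, namely ORR1B2, ORR1C1, ORR1E, ORR1F and ORR1G (0.28, 0.41, 0.33, 0.36 and 0.38, with edgeR adjusted p of 0.0197, 0.00877, 0.0216, 0.0135 and 0.0279), against 10.8% of all repeats called higher and 0.996% lower. Unless another setting is named, all levels, log2 fold changes and edgeR calls that follow come from the main fit with TMM scaling. They are therefore relative to the typical repeat. The TMM factors ran from 0.767 to 0.977 in WT and from 0.978 to 1.26 in KO, so every KO factor exceeded every WT factor. A higher factor lowers the normalised CPM of a library, and counts of KO libraries below the WT range carry this shift.

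Among the internal parts, that of the youngest subfamily held the most reads. ORR1A0-int stood at 18100 to 26224 normalised CPM in WT (CPM with TMM factors, median 21781) and at 12276 to 19354 in KO (median 14781). WT replicate 2 was highest and WT replicate 4 lowest in WT, KO replicate 2 was highest in KO, and 5 of 6 KO libraries lay below every WT library. The mean fell from 22099 ± 2735 to 15239 ± 2703 (mean ± SD, n = 6), a log2 fold change of -0.54 ± 0.12 (SE; edgeR adjusted p = 0.0359), or 1.45-fold. This call was lost without any of 9 single libraries (all but WT replicate 4, KO replicate 2 and KO replicate 4). The edgeR adjusted p ran from 0.0148 to 0.0992 over the 12 such fits and was 0.111 without WT replicate 2 and KO replicate 5, with log2 fold changes of -0.62 to -0.48 over these fits. In edgeR the call was also lost with RLE scaling (log2 fold change -0.54, adjusted p = 0.0555), no filter (-0.52, 0.0958) and total-count scaling, where the log2 fold change shrank to -0.23 (adjusted p = 0.0571). It held in edgeR with upper quartile factors (adjusted p = 0.0421) and TMM factors from rows outside the LTR class (0.0337). The call also held in edgeR with the replicate block (0.0443), library size as a covariate (0.0209) and at least 50 counts in at least 6 libraries (0.0128). Without simple repeats and low-complexity rows the edgeR adjusted p was 0.00926. DESeq2 and limma-voom gave adjusted p of 0.00188 and 0.0260.

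ORR1A3-int, the internal part of another A subfamily, stood at 10151 to 15186 normalised CPM in WT (median 11874) and 6668 to 10601 in KO (median 8209). Again 5 of 6 KO libraries lay below every WT library. The mean fell from 12128 ± 1726 to 8483 ± 1451 (mean ± SD, n = 6), a log2 fold change of -0.52 ± 0.12 (SE; edgeR adjusted p = 0.0487). The call held in edgeR fits without WT replicate 4 or KO replicate 2 and was lost without each of the other 10 libraries (adjusted p up to 0.117, log2 fold change -0.59 to -0.44). It was lost as well without WT replicate 2 and KO replicate 5 together (0.126), with upper quartile factors (0.0546), RLE (0.0615) and no filter (0.145), at log2 fold changes of -0.52 to -0.45. With total-count scaling the value shrank to -0.21 and the edgeR adjusted p was 0.0977. The call held in edgeR with TMM factors from rows outside the LTR class (adjusted p = 0.0425), the replicate block (0.0433) and library size as a covariate (0.0270). It also held in edgeR with at least 50 counts in at least 6 libraries (0.0160) and without simple repeats and low-complexity rows (0.0116). DESeq2 and limma-voom gave adjusted p of 0.00378 and 0.0356. The remaining 3 internal parts of A did not pass, with log2 fold changes of -0.47 to -0.43 and edgeR adjusted p of 0.0517 to 0.0645.

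The A internal parts were set against each other within libraries. The log2 ratio of ORR1A0-int to ORR1A1-int was 0.10 ± 0.024 in WT (0.07 to 0.12) and 0.03 ± 0.030 in KO (-0.02 to 0.07), and every KO value was under the WT range (mean ± SD, n = 6). The ratio to ORR1A2-int was 0.41 ± 0.041 and 0.31 ± 0.040, with all 6 KO values under the WT median, and that to ORR1A4-int 2.28 ± 0.064 and 2.18 ± 0.122. The ratio to ORR1A3-int was 0.87 ± 0.058 and 0.84 ± 0.038, and its groups overlapped. Over all 12 libraries the SD of these 4 ratios was 0.04 to 0.11 (ORR1A4-int). That of the ratios of ORR1A0-int to the 10 internal parts of B to G was 0.10 (ORR1D1-int) to 0.58 (ORR1D-int). Both ranges include the difference between genotypes. ORR1D-int, with the largest SD, had only 281 to 1345 counts per library. How far count depth shaped these SDs was not tested. Internal parts of related subfamilies can be near-identical, and the labels do not state how shared reads were divided, which leaves the separate levels of the A internal parts uncertain. These ratios are descriptions, chosen after the values were seen.

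None of the internal parts of B to E passed. ORR1B1-int stood at 3906 to 5351 normalised CPM in WT (median 4659) and 3053 to 4172 in KO (median 3388), a log2 fold change of -0.38 ± 0.10 (SE; edgeR adjusted p = 0.0625). Its WT median exceeded all 6 KO levels, and 4 of these were under the WT range. ORR1D2-int ranged from 4791 to 5666 in WT (median 5575) and from 3317 to 5067 in KO (median 3853), with a log2 fold change of -0.41 ± 0.11 (SE; edgeR adjusted p = 0.0643). Of its KO libraries 5 lay below the WT range.

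ORR1C1-int ranged from 427 to 649 normalised CPM in WT (median 510) and from 369 to 495 in KO (median 427), with a log2 fold change of -0.29 ± 0.10 (SE; edgeR adjusted p = 0.175), the value nearest 0 among internal parts with a negative one. ORR1E-int ranged from 1844 to 2187 in WT (median 2102) and from 1266 to 2181 in KO (median 1604), with a log2 fold change of -0.33 ± 0.11 (SE; edgeR adjusted p = 0.174). KO replicates 2 and 4 lay within the WT range. ORR1B2-int and ORR1C2-int were not among the rows chosen for naming and are given because their groups did not overlap. ORR1B2-int had levels of 646 to 988 in WT and 453 to 630 in KO, and ORR1C2-int of 459 to 667 and 276 to 449 (edgeR adjusted p = 0.0537 and 0.0643). The terminal repeat ORR1D2 stood at 1613 to 1956 in WT and 1432 to 1570 in KO (edgeR adjusted p = 0.165). With it they were the 3 of 29 rows without overlap, against 1.39% of all tested repeats. That share covers all 3312 tested repeats, and the share among LTR rows was not computed. The levels of these 3 rows depend on the scaling. Under total-count scaling the log2 fold change of ORR1D2 was positive, at 0.13 (edgeR adjusted p = 0.232). Those of ORR1B2-int and ORR1C2-int shrank to -0.17 and -0.16. Without the TMM factors, KO replicate 5 lay above the lowest WT library in ORR1B2-int and ORR1C2-int. In ORR1D2, KO replicate 2 then lay inside the WT range and KO replicate 1 above it. The groups thus overlapped in all 3 rows under total counts. With the TMM factors, no member had every KO library above every WT library (0 of 29, against 0.725%).

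ORR1F-int and ORR1G-int, internal parts of the oldest subfamilies, had log2 fold changes at or below those of most A internal parts, but did not pass. ORR1F-int, a rare row of 0.276% of the ORR1 counts, stood at 295 to 551 normalised CPM in WT (median 376) and 177 to 298 in KO (median 262). Its log2 fold change of -0.69 ± 0.16 (SE; edgeR adjusted p = 0.0517) was the lowest of all 29. ORR1G-int ranged from 2327 to 3233 in WT (median 2753) and from 1493 to 2396 in KO (median 1894), with a log2 fold change of -0.53 ± 0.13 (SE; edgeR adjusted p = 0.0517). In both rows 5 of 6 KO libraries lay below the lowest WT library with TMM scaling. Under total-count scaling the log2 fold change of ORR1G-int shrank to -0.22 (edgeR adjusted p = 0.292) and that of ORR1F-int to -0.38 (0.0420). The exception among internal parts was ORR1D-int, with a log2 fold change of 0.11 ± 0.17 (SE; edgeR adjusted p = 0.875). It was the rarest row, at 33.5 to 74.3 normalised CPM in WT and 56.6 to 81.4 in KO, or 281 to 1345 counts per library, and has no terminal repeat of the same name. Without WT replicate 2, its lowest WT library, the log2 fold change was -0.01 (edgeR adjusted p = 0.989).

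**Figure D2:**
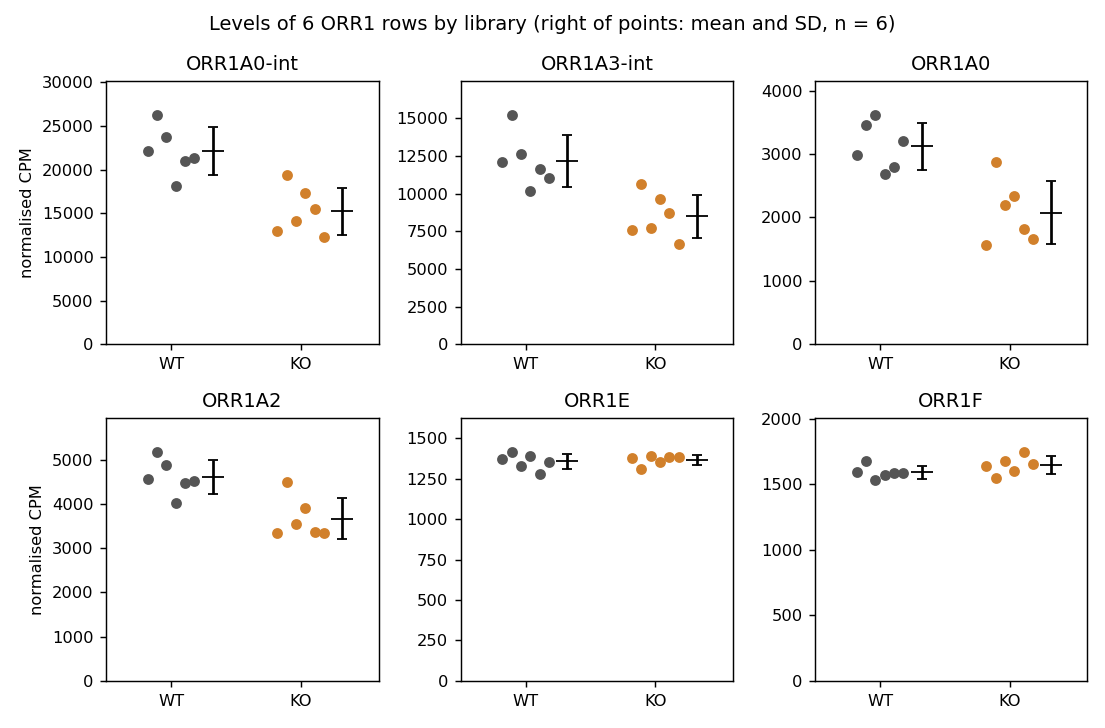
Normalised CPM (vertical axes, starting at 0, one scale per panel) of 6 ORR1 rows in each library, WT in grey and KO in orange, with the mean and SD (n = 6) to the right of the points. With TMM scaling, 5 of 6 KO libraries lie below every WT library for ORR1A0-int, ORR1A3-int, ORR1A0 and ORR1A2. For the terminal repeats ORR1E and ORR1F the 2 groups overlap. Under total-count scaling the log2 fold change of ORR1A2 was -0.02.

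None of the 14 terminal repeats passed in the main edgeR fit (0 of 14, of which 8 were lower and 0 higher at an unadjusted p under 0.05, and 4 were called lower by DESeq2, which were those of A0 to A3). ORR1A0 stood at 2678 to 3610 normalised CPM in WT (median 3097) and 1562 to 2874 in KO (median 2002), with KO replicate 2 alone inside the WT range. The means were 3122 ± 371 and 2073 ± 495 (mean ± SD, n = 6), a log2 fold change of -0.59 ± 0.14 (SE; edgeR adjusted p = 0.0510, and 0.0137 to 0.118 when single libraries were left out). DESeq2 gave an adjusted p of 0.00243. ORR1A0 also passed in edgeR with TMM factors from rows outside the LTR class (adjusted p = 0.0463), the replicate block (0.0433) and library size as a covariate (0.0490). It passed too with at least 50 counts in at least 6 libraries (0.0126) and without simple repeats and low-complexity rows (0.00926). It did not pass with RLE (0.0592), upper quartile factors (0.0601), total counts (0.0586) or no filter (0.145).

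The terminal repeats ORR1A1 and ORR1A2 had smaller differences. ORR1A1 ranged from 3644 to 6062 normalised CPM in WT (median 4275) and from 2656 to 4402 in KO (median 3361), a log2 fold change of -0.43 ± 0.13 (SE; edgeR adjusted p = 0.124). ORR1A2 ranged from 4032 to 5173 in WT (median 4536) and from 3341 to 4495 in KO (median 3451), a log2 fold change of -0.33 ± 0.09 (SE; edgeR adjusted p = 0.0755). In each of them 5 KO libraries lay below the WT range and KO replicate 2 lay inside it. These positions are those with TMM scaling. Under total-count scaling the log2 fold changes shrank to -0.12 for ORR1A1 and -0.02 for ORR1A2 (edgeR adjusted p = 0.359 and 0.868).

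In B, C and D the terminal repeats with the most reads were ORR1B1, ORR1C2 and ORR1D1. ORR1B1 stood at 2263 to 2694 normalised CPM in WT (median 2414) and 2095 to 2468 in KO (median 2160), with a log2 fold change of -0.16 ± 0.06 (SE; edgeR adjusted p = 0.284). ORR1D1 stood at 3170 to 4052 in WT (median 3617) and 3050 to 3690 in KO (median 3215), with a log2 fold change of -0.15 ± 0.07 (SE; edgeR adjusted p = 0.371). Both turned positive under total-count scaling (0.16 each). ORR1C2 ranged from 4278 to 6826 in WT (median 4955) and from 3204 to 5289 in KO (median 3978). Its log2 fold change of -0.36 ± 0.13 (SE; edgeR adjusted p = 0.186) was closer to those of the A terminal repeats than to the 0.09 of ORR1C1 (edgeR adjusted p = 0.634), which was not among the rows chosen for naming.

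Terminal repeats of E, F and G, the oldest subfamilies, had log2 fold changes near 0. ORR1E stood at 1278 to 1414 normalised CPM in WT (median 1365) and 1312 to 1390 in KO (median 1380), with a log2 fold change of 0.01 ± 0.05 (SE; edgeR adjusted p = 0.970). ORR1F stood at 1534 to 1680 in WT (median 1589) and 1548 to 1748 in KO (median 1650), with 0.05 ± 0.05 (SE; edgeR adjusted p = 0.808). ORR1G stood at 271 to 330 in WT (median 299) and 270 to 392 in KO (median 308), with 0.08 ± 0.09 (SE; edgeR adjusted p = 0.797). The groups overlapped in all 3.

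The difference between internal and terminal rows was tested within each library, as the log2 ratio of the counts of the internal part to those of the terminal repeat of the same subfamily. Such a ratio does not depend on the scaling between libraries. Of the 14 subfamilies with both rows, 7 had a lower ratio in KO at an adjusted p under 0.05, and 7 did not pass (exact permutation test over all 924 regroupings, two-sided, Benjamini-Hochberg over 14 ratios). The 7 were ORR1A4, ORR1B1, ORR1B2, ORR1C1, ORR1D1, ORR1F and ORR1G. In 13 of 14 subfamilies the difference was negative.

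The largest difference was that of ORR1F. Its ratio was -2.05 ± 0.268 in WT, from -2.43 to -1.61, and -2.79 ± 0.354 in KO, from -3.22 to -2.42 (mean ± SD, n = 6), a difference of -0.74 (exact permutation p = 0.00433, adjusted p = 0.0152). For ORR1G the ratio was 3.19 ± 0.211 in WT and 2.57 ± 0.364 in KO, a difference of -0.62 (n = 6, exact permutation p = 0.00649, adjusted p = 0.0182). The WT median exceeded all 6 KO values in both subfamilies.

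The groups did not overlap in ORR1B2 and ORR1D1. The ORR1B2 ratio ran from -0.30 to 0.07 in WT and from -0.84 to -0.41 in KO, a difference of -0.45, and that of ORR1D1 from -0.57 to -0.33 in WT and from -0.90 to -0.62 in KO, a difference of -0.26 (n = 6, exact permutation p = 0.0021645 for each, the smallest that 6 against 6 can give, adjusted p = 0.0152). The ratios of ORR1C1, ORR1B1 and ORR1A4 differed by -0.38, -0.23 and -0.37 (n = 6, exact permutation, adjusted p = 0.0152, 0.0202 and 0.0433). Each WT median exceeded all 6 KO values.

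The younger A subfamilies did not show this difference past the threshold. The ORR1A0 ratio was 2.82 ± 0.096 in WT and 2.89 ± 0.162 in KO (mean ± SD, n = 6), a difference of 0.07, the only positive one (exact permutation p = 0.416, adjusted p = 0.416). For ORR1A1, ORR1A2 and ORR1A3 the differences were -0.05, -0.11 and -0.16 (n = 6, exact permutation, adjusted p = 0.416, 0.0572 and 0.154). ORR1C2, ORR1D2 and ORR1E gave -0.12, -0.24 and -0.36 (n = 6, exact permutation, adjusted p = 0.354, 0.0909 and 0.0572).

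Leaving out single libraries kept 6 to 9 of the ratios past the threshold. ORR1B1, ORR1B2, ORR1C1, ORR1D1, ORR1F and ORR1G passed in all 12 such tests (exact permutation, adjusted p up to 0.0354). ORR1A4 was lost without WT replicate 1, 2, 3 or 5 or KO replicate 1, 3, 5 or 6 (adjusted p up to 0.0909). Without WT replicate 2 and KO replicate 5 together 5 ratios passed, with ORR1A4, ORR1B1 and ORR1G lost (exact permutation, adjusted p = 0.111, 0.0556 and 0.0556) and ORR1A2 gained (0.0370).

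**Figure D3:**
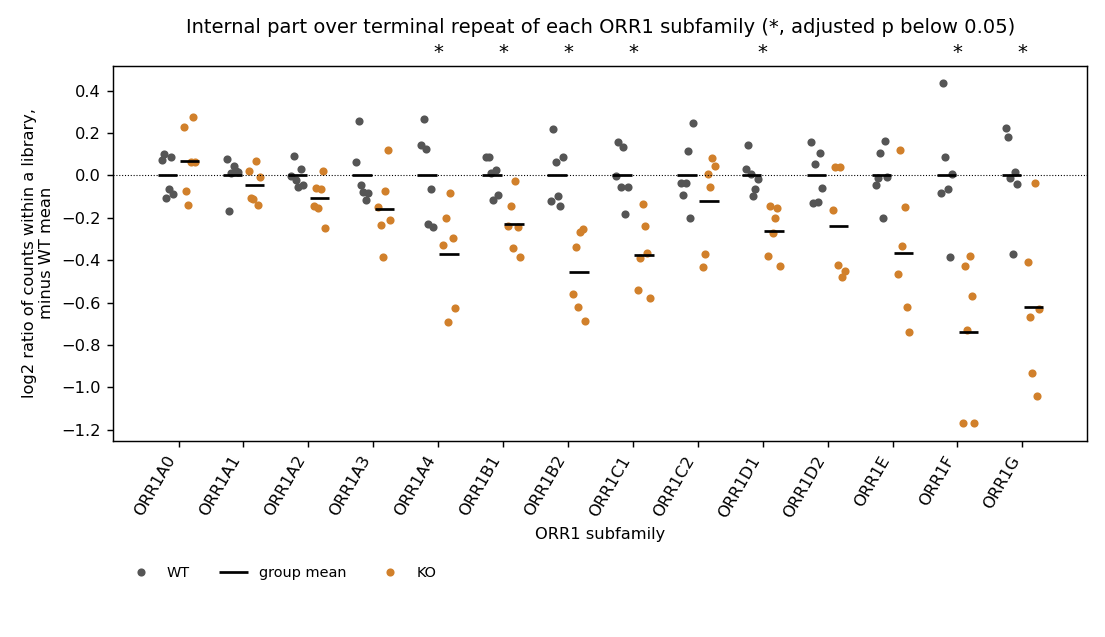
Log2 ratio of the counts of the internal part to those of the terminal repeat within each library, minus the WT mean, for the 14 ORR1 subfamilies with both rows; points are libraries (WT grey, KO orange), black lines group means, and asterisks mark an adjusted p below 0.05 (exact permutation). KO means run from 0.07 above the WT mean in ORR1A0 to 0.74 below it in ORR1F.

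ORR1A0 was also set against the other terminal repeats. Within libraries, the log2 ratio of ORR1A0 to ORR1E went from 1.19 ± 0.170 in WT (0.95 to 1.44) to 0.57 ± 0.360 in KO (0.18 to 1.13), a difference of -0.63 (mean ± SD, n = 6). The ratio of ORR1A0 to ORR1F went from 0.96 ± 0.172 to 0.30 ± 0.376, and that to ORR1G from 3.37 ± 0.231 to 2.68 ± 0.299. The highest KO ratio, that of KO replicate 2 for ORR1E and ORR1F and of KO replicate 4 for ORR1G, lay inside the WT range. Against the other A terminal repeats the differences were -0.18 for ORR1A1, -0.28 for ORR1A2, -0.25 for ORR1A3 and -0.55 for ORR1A4. All 13 differences were negative, since ORR1A0 had the lowest log2 fold change of the terminal repeats. The comparison was chosen after those values were seen, and the ratios are given with no test.

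**Figure D4:**
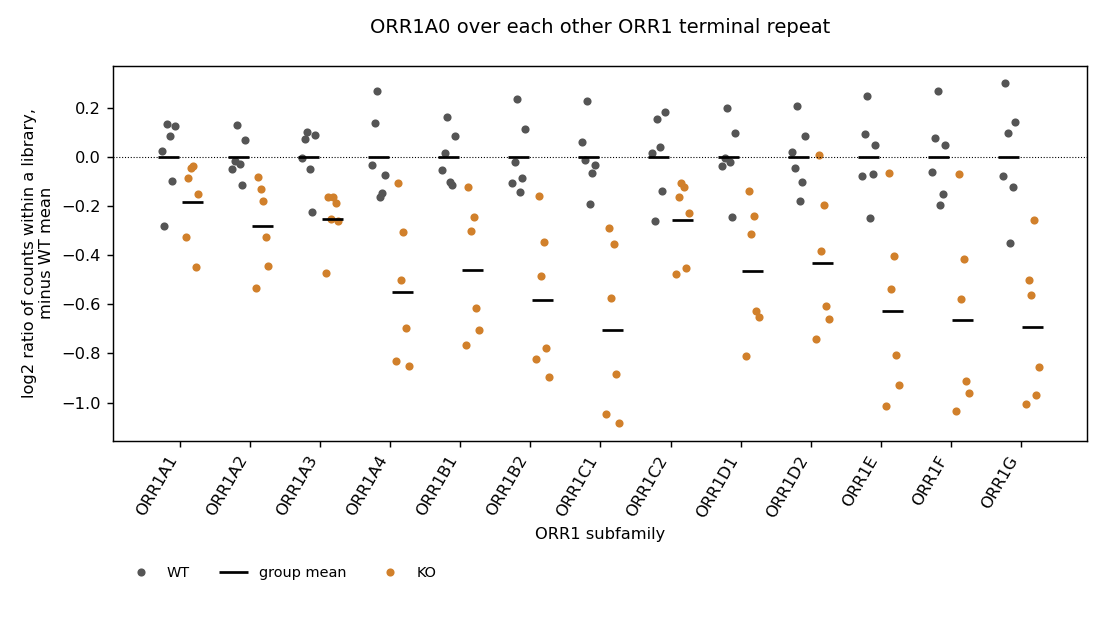
Log2 ratio of ORR1A0 counts to the counts of each other ORR1 terminal repeat within each library, minus the WT mean; points are libraries (WT grey, KO orange) and black lines group means. KO means lie 0.18 (ORR1A1) to 0.71 (ORR1C1) below the WT mean, with ORR1A1, ORR1A2, ORR1A3 and ORR1C2 nearest to it.

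The response of ORR1A0 was set against that of MERVL, the ERVL element that drives transcripts of the 2-cell stage, and of MTA, an MT element abundant in oocyte RNA. The log2 ratio of ORR1A0 to MERVL-int was -4.38 ± 0.244 in WT and -3.94 ± 0.284 in KO (mean ± SD, n = 6), a difference of 0.44 (exact permutation p = 0.0260, adjusted p = 0.104 over 4 ratios). That to the MERVL terminal repeat MT2_Mm differed by 0.31 (n = 6, exact permutation adjusted p = 0.108). Ratios to MTA_Mm-int and MTA_Mm went the other way, with -0.17 and -0.18 (n = 6, exact permutation adjusted p = 0.108 for both). None of the 4 passed. KO replicate 5 had the lowest KO ratio to both MERVL-int and MT2_Mm, so leaving it out must enlarge these differences. Without it they were 0.55 and 0.40 and both passed (exact permutation, adjusted p = 0.0216 each). With any other single library left out, 0 of the 4 passed. In the main fit MERVL-int itself had a log2 fold change of -1.04, MT2_Mm of -0.92, MTA_Mm-int of -0.43 and MTA_Mm of -0.43. Their edgeR adjusted p were 0.0159, 0.0229, 0.0901 and 0.157, and the log2 fold change of ORR1A0 was -0.59.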

How the data were processed

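The authors deposited 1 table per library with an estimated count of reads for each repeat name, its class and its family. Every value in these deposited tables was already whole, so rounding to a count changed nothing. Per the submitters' processing notes, mm10, Trimmomatic 0.32 and edgeR were used; the aligner, repeat annotation and use of strand are not stated in what was used here. The names of the deposited tables describe the counts as unique and fractional, and no source says how reads shared between repeat names were treated. Groups and replicate numbers came from the sample titles. The numbers in the deposited table names run in the opposite order within each group (replicate 1 by title is number 6 there), the same way in both groups.

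The genotypes were compared over all rows by edgeR 4.0.16 under R 4.3.3 (filterByExpr, TMM, quasi-likelihood F test, genotype as the only term, Benjamini-Hochberg, threshold 0.05), a script tested on simulated data. Standard errors were taken from the F statistic. DESeq2 1.42.0 and limma 3.58.1 were alternatives. Ratios within libraries were compared by exact permutation (all 924 regroupings, two-sided). Totals of 7952526 to 18902360 counts gave each member at least 281 counts per library. PCR copies cannot be told from separate molecules in such counts. No pair of replicates agreed within sampling noise (chi-square per degree of freedom at least 29.6 in 30 pairs).

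The members and lists were chosen with earlier results of these data known. Rows named with values were ORR1A0, ORR1A0-int, ORR1A1, ORR1A2 and ORR1A3-int, all called members, the terminal and internal row with the most counts in each subfamily letter, and the highest and lowest log2 fold change among rows averaging 10 normalised CPM or more.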

Additional observations from a re-analysis of the deposited data

Results flagged for a closer look

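In groups of 6 libraries, 98 sets of values (named members and ratios) were examined for a library far from the others, and 4 were found, where about 1 in 20 is given by chance. ORR1B1 stood at 2468 normalised CPM in KO replicate 2, with the next KO library at 2188 and the lowest at 2095. ORR1D1 stood at 3690 in the same library, with the next at 3266 and the lowest at 3050. The log2 ratio of ORR1A1-int to ORR1A1 was 2.03 in WT replicate 2, with the next WT library at 2.21 and the highest at 2.27. The log2 ratio of ORR1A0 to ORR1A3 was 0.16 in KO replicate 1, with the next KO library at 0.37 and the highest at 0.47.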

How the results depend on the processing

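The count of all called repeats (47) became 390 with total-count scaling, 169 with DESeq2, 18 with no filter, 106 with at least 50 counts in at least 6 libraries, 108 without simple repeats and low-complexity rows, 72 with library size as a covariate and 23 without WT replicate 2 and KO replicate 5, and ran from 19 to 93 without single libraries. The 2 lower ORR1 calls became 1 with total-count scaling, 0 with RLE, no filter, or without WT replicate 2 and KO replicate 5, 7 with TMM factors from rows outside the LTR class or limma-voom, 16 with DESeq2, 14 with the stricter filter, 15 without simple repeats and 9 with library size as a covariate, and ran from 0 to 16 without single libraries. The stricter filter and the fit without simple repeats tested 2013 and 1223 rows, against 3312, so p-values were adjusted over fewer tests. Unadjusted p moved as well, for ORR1A0 from 0.00075 to 0.00024 and 0.00028 in these fits (edgeR). DESeq2 and the fit with library size as a covariate tested 3312 rows. What moved the counts was not tested. Higher ORR1 calls were 5 under total-count scaling, where the median log2 fold change was -0.049 for ORR1, -0.13 for internal parts and 0.16 for terminal repeats. Under the other settings run the ORR1 median lay between -0.44 and -0.29.

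The replicate block (the number in the titles as a term) gave 48 called repeats and 7 lower ORR1 calls. Same-numbered libraries deviated together in 1 of 6 pairs (correlations -0.0712 to 0.155), and in 1 of 6 numbers a library correlated best with its own number, so the block was not used elsewhere. With the block as an exact sign-flip test, 0 of the 14 internal to terminal ratios passed (lowest adjusted p = 0.0875); its smallest p is 0.03125, and 5 ratios reached it. Of the 4 ORR1A0 ratios to MERVL and MT rows 2 passed without KO replicate 5 and without it and WT replicate 2 (0 otherwise, range 0 to 2 over single libraries).

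Signs turned in 6 of 432 values of the named members: ORR1B1, ORR1D1 and ORR1C1-int under total-count scaling (0.16, 0.16 and 0.025), ORR1D-int without WT replicate 2 (-0.011, and 0.18 at most without single libraries), and ORR1E with TMM factors from rows outside the LTR class (-0.018) or without WT replicate 5 (-0.016, and 0.024 at most without single libraries). Among rows not chosen for naming, ORR1A4, ORR1B2 and ORR1D2 also turned positive under total-count scaling (0.24, 0.28 and 0.13). Over all 29 rows, 18 were negative under that scaling, against 24 in the main fit. As a share of ERVL-MaLR counts, the log2 of the KO over the WT mean of ORR1 was -0.018, against -0.11 of all counts.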

Other observations

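Other elements were compared in the same way as the ORR1 subfamilies, a comparison added after the ORR1 ratios were seen. Of 10 internal to terminal ratios, 9 of MT subfamilies with at least 10 counts of both rows in every library and that of MERVL-int to MT2_Mm, 0 passed (exact permutation over 6 against 6 libraries, lowest adjusted p = 0.0649, and 3 at an unadjusted p under 0.05). The differences ran from -0.43 for MTEa to 0.01 for MTB_Mm with a median of -0.06, beside a median of -0.25 for the 14 ORR1 subfamilies. Of the 10 differences 7 were negative, beside 13 of the 14 for ORR1. At an unadjusted p under 0.05 there were 9 of the 14 ORR1 ratios (exact permutation). For MTD (-0.20) and MTEa all 6 KO values lay under the WT median. The difference between the MT and the ORR1 ratios was not tested. Without WT replicate 5 or KO replicate 4, 2 of the 10 passed.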
